A study of Mus musculus with 12 samples.

Results

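Neurotrophic factor receptors and ligands were followed in mouse dorsal root ganglia (DRG), the ganglia that hold the cell bodies of sensory neurons. The members were chosen by gene name: the neurotrophin receptors Ntrk2, Ntrk3 and Ngfr, the GDNF family receptors Ret, Gfra1, Gfra2 and Gfra3, and the ligands Bdnf and Gdnf, which make 9 of the 44345 gene names in the count table. Sciatic DRG (L4-L6) came from C57BL/6 mice aged 5 to 8 weeks that spent 10 days in standard housing (SH) or in an enriched environment (EE), with a running wheel, tunnels and more nesting material. They then underwent sciatic nerve axotomy (SNA, a complete transection of the sciatic nerve) or a sham operation that exposed the nerve, and DRG were collected 24 h later. Housing and operation made 4 groups of 3 samples, SH Sham and SH SNA from standard housing, EE Sham and EE + SNA from enriched housing, and each sample pooled the ganglia of both sides of 2 mice. The study describes the EE Sham data as reported earlier, and the labels give no date or batch. If EE Sham alone was made at another time, its batch cannot be told apart from the groups in EE Sham against SH Sham. The same then holds for EE + SNA against EE Sham and for the interaction of housing and surgery. The study set each condition against its respective SH Sham, and when SH Sham was made is not stated. If SH Sham was made with EE Sham, batch also cannot be told apart from the groups in SH SNA against SH Sham and in EE + SNA against SH Sham.

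Neurotrophic factors are secreted proteins that support the survival, growth and function of sensory neurons. BDNF and the other neurotrophins act through receptor tyrosine kinases of the Trk family and through p75NTR, the product of Ngfr, which binds all neurotrophins. Ligands of the GDNF family bind a membrane-anchored co-receptor of the GFRα family, and the ligand and co-receptor together activate the tyrosine kinase RET. Sensory neurons of different classes are known to carry different receptors of these families, and nociceptors that bind isolectin B4 are known for RET and its co-receptors.

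Libraries held 11343579 to 22871460 reads assigned to genes. The injury response gene Atf3, a transcription factor induced in axotomised neurons, rose by 2.12 on the log2 scale after SNA in SH (adjusted P = 4.99e-08, edgeR), the direction the SNA label calls for. The summed level of 8 sensory neuron markers was 8970 to 9100 CPM (reads of a gene scaled by the reads of its library) in SH Sham, 8360 to 8850 in SH SNA, 8540 to 8830 in EE Sham and 8350 to 8650 in EE + SNA, so the tissue carried the defining markers of its label in every group. Among these markers Rbfox3 and Isl1 fell after SNA in SH, by 0.36 and 0.42 on the log2 scale, and the other 6 were not called. In the same comparison 2 of 3 red blood cell markers were called, both higher, with Hba-a1 at 1.07 and Alas2 at 1.08 on the log2 scale. The satellite glia markers Glul and Cdh19 rose by 0.47 and 0.30, 2 of 6, and the macrophage marker Mrc1 by 0.66, 1 of 7. The part of these markers in the members' levels was not tested. The Schwann cell sum spanned 6770 to 8240 CPM in SH Sham and 7210 to 10700 in SH SNA. In EE Sham replicate 3 the sympathetic neuron sum reached 14.5 CPM against at most 5.15 in the other libraries, and in SH SNA replicate 2 the skeletal muscle sum reached 749.9 CPM against at most 135 in the others. In EE + SNA replicate 3 the neutrophil sum was 651 CPM against at most 278 in the others, and its red blood cell sum of 595 CPM was the highest, with 516 in the next library. In bulk ganglia, fewer cells of a type and less RNA per cell cannot be told apart.

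The receptors were present at very different levels. On the authors' length-scaled FPKM (fragments scaled by gene length and by library size), Ngfr led in SH Sham with 163 ± 22.6 (SD, n = 3), followed by Ret with 92.6 ± 8.14. Gfra1 at 36.0 ± 2.01 FPKM and Gfra2 at 35.8 ± 3.28 FPKM overlapped across the SH Sham samples and could not be ordered. Below them came Gfra3 with 21.8 ± 2.24, Bdnf with 18.4 ± 0.30, Ntrk2 with 14.0 ± 0.26 and Ntrk3 with 4.51 ± 0.57 FPKM, each apart from its neighbour in all 3 samples. Gdnf was last with 0.0715 ± 0.0769 FPKM. In EE Sham the order was the same except that Bdnf, at 19.7 FPKM, and Gfra3, at 19.1 FPKM, changed places and overlapped. After SNA, Gfra1 stood apart below Ret at 68.0 FPKM in SH SNA and 63.2 in EE + SNA, and Gfra2, Gfra3 and Bdnf came next, of which Gfra2 and Gfra3 each overlapped with the next one in the order. Gene counts do not separate full-length from truncated forms of TrkB and TrkC, which are made from Ntrk2 and Ntrk3.

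**Figure D1:**
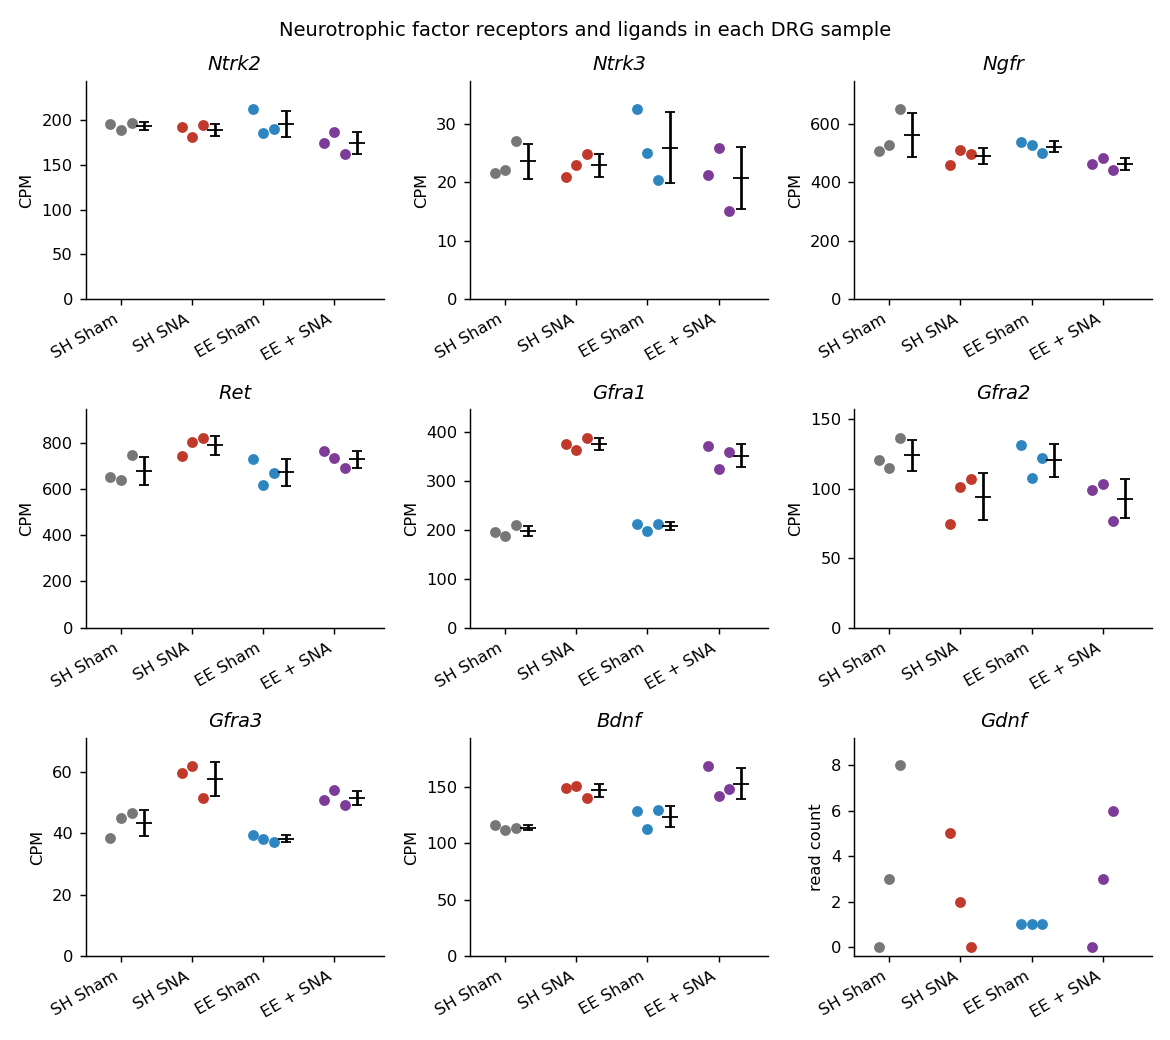
Level of each member in all 12 samples, as CPM (y axes) by group (x axes), with points for samples and black bars for the mean ± SD of 3; Gdnf is shown as read counts. Gfra1, Gfra3 and Bdnf lie higher in SH SNA than in SH Sham without overlap, Gfra2 lies lower, and Gdnf stays at 0 to 8 reads.

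The first comparison asked how axotomy changed these genes in mice in standard housing. Gfra1, the co-receptor that prefers GDNF, rose 1.90-fold in SH SNA, Gfra3, the co-receptor for artemin, rose 1.33-fold, and the ligand gene Bdnf rose 1.29-fold. Gfra2, the co-receptor that prefers neurturin, fell to 0.761 of its sham level. The neurotrophin receptors Ntrk2, Ntrk3 and Ngfr were not called. After adjustment 4 of the 8 members tested were called at an adjusted P below 0.05, 3 higher and 1 lower, where 11.2% of all 16238 genes tested were called, 5.97% higher and 5.22% lower. At the study's unadjusted threshold of 0.05, 6 of 8 members passed against 25.2% of all genes. The same 4 members had groups that did not overlap, as had 29.4% of all genes. Without SH SNA replicate 2, the library with more muscle RNA, 4 members were called.

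Gfra1 (ENSMUSG00000025089, chr19:58235604-58455909, minus strand, GRCm38) measured 195, 187 and 209 CPM in SH Sham and 375, 363 and 387 CPM in SH SNA. EE Sham samples gave 212, 197 and 212 CPM, and EE + SNA samples gave 370, 324 and 359 CPM. All 6 axotomised samples lay above all 6 sham samples, and the lowest of them was an EE + SNA sample. The log2 fold change in SH was 0.93 (SE 0.058, 95% interval 0.80 to 1.06, adjusted P = 1.67e-06), the largest of the members in either direction. Of the 5476 exon bases of Gfra1, 416 are shared with the antisense gene Gm16277, and reads of both genes cannot be told apart there because the strand setting of the counting is not given in the sources used here.

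The start region of Gfra1 is shown because this was the member with the largest change, in the RefSeq window of 250 bases before and 50 bases from the start site on GRCm38.p6, chr19:58455349-58455648, minus strand. Windows were searched on both strands for the letters TGACGTCA (CRE, bound by CREB and ATF proteins), TGANTCA (AP-1) and TTCNNNGAA (STAT). N stood for any base, so the AP-1 letters were a loose form of the site bound by JUN and FOS proteins. CRE and AP-1 letters both begin with TGA, but no CRE match is also an AP-1 match. The Gfra1 window held none of these letters, so it has no capitals.
Gfra1: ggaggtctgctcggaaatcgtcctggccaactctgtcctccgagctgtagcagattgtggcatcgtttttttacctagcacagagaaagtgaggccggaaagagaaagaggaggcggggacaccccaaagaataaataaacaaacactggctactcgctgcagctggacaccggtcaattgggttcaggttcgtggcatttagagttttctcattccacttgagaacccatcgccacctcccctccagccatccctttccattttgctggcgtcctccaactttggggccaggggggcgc

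Gfra2 (ENSMUSG00000022103, chr14:70890120-70979838, plus strand) stood at 121, 114 and 136 CPM in SH Sham and at 74.7, 101 and 107 CPM in SH SNA. Values in EE Sham were 131, 108 and 122 CPM and in EE + SNA they were 98.9, 103 and 76.6 CPM. Each axotomised sample lay below each sham sample, with SH SNA replicate 1 and EE + SNA replicate 3 well below the rest. The log2 fold change in SH was -0.39 (SE 0.11, 95% interval -0.63 to -0.15, adjusted P = 0.0378). This call depended on single samples: without SH SNA replicate 1 the log2 fold change was -0.25 (adjusted P = 0.0802), and without SH Sham replicates 1 and 3 in turn the adjusted P was 0.0772 and 0.139. Of the sensory neuron markers, 2 of 8 fell in the same comparison, and their part in the level of Gfra2 was not tested.

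Gfra3 (ENSMUSG00000024366, chr18:34689898-34720387, minus strand) gave 38.7, 44.9 and 46.8 CPM in SH Sham against 59.7, 61.8 and 51.5 CPM in SH SNA. In EE Sham it gave 39.3, 38.3 and 37.3 CPM, and in EE + SNA 51.0, 54.0 and 49.4 CPM. Axotomised and sham samples did not overlap in either housing. In SH this was a log2 fold change of 0.41 (SE 0.088, 95% interval 0.22 to 0.60, adjusted P = 0.00970).

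Ret (ENSMUSG00000030110, chr6:118151745-118197718, minus strand), the signalling receptor shared by the GFRα co-receptors, had 652, 638 and 747 CPM in SH Sham and 743, 806 and 822 CPM in SH SNA. In EE Sham it had 732, 616 and 672 CPM and in EE + SNA 764, 733 and 691 CPM. Its groups overlapped in each comparison. Ret had a log2 fold change in SH of 0.22 (SE 0.072, 95% interval 0.063 to 0.38) with an unadjusted P of 0.00972 and an adjusted P of 0.0713, so Ret was not called; in 4 of 8 other analyses and without SH Sham replicate 3 it was called.

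The make-up of the co-receptor transcripts differed between sham and axotomised ganglia, described here from FPKM with no test. Gfra1 FPKM divided by Gfra2 FPKM ran from 0.968 to 1.03 over the SH Sham samples and from 2.26 to 3.17 over the SH SNA samples. In EE the ratio ran from 1.02 to 1.16 in sham and from 1.99 to 2.96 in axotomised samples. Gfra1 made up 37.8% to 39.6% of the summed FPKM of Gfra1, Gfra2 and Gfra3 in the SH Sham samples and 52.4% to 57.0% in the SH SNA samples. The share of Gfra2 was 38.2% ± 1.19 in SH Sham and 21.8% ± 3.33 in SH SNA (SD, n = 3), and that of Gfra3 was 23.3% in both. Shares in EE + SNA were 54.9% for Gfra1 and 22.9% for Gfra2, close to those of SH SNA. The summed co-receptor FPKM was 93.7 ± 6.64 in SH Sham, 124 ± 3.76 in SH SNA, 91.2 ± 3.39 in EE Sham and 115 ± 4.54 in EE + SNA. Ret FPKM divided by the summed FPKM of Gfra1, Gfra2 and Gfra3 was 0.967 to 1.01 in SH Sham and 0.972 to 1.04 in EE Sham. It was 0.844 to 0.879 in SH SNA and 0.837 to 0.861 in EE + SNA. Every axotomised sample thus had less Ret per transcript of these co-receptors than any sham sample. Gfra4 was not part of the sum.

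**Figure D2:**
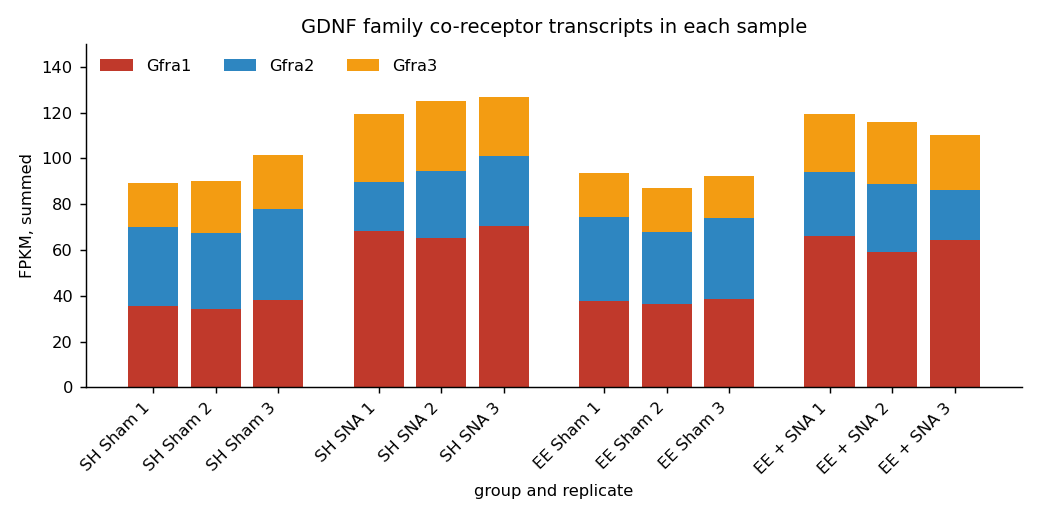
Stacked FPKM (y axis) of Gfra1 (red), Gfra2 (blue) and Gfra3 (orange) in each of the 12 samples (x axis). The red block is 34.4 to 38.6 FPKM in the sham samples and 59.1 to 70.3 FPKM in the axotomised samples, while the blue block is smaller after SNA.

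Bdnf (ENSMUSG00000048482, chr2:109674700-109727007, plus strand), the ligand of TrkB, had 117, 112 and 114 CPM in SH Sham and 149, 151 and 141 CPM in SH SNA. EE Sham gave 129, 113 and 129 CPM and EE + SNA gave 168, 142 and 149 CPM. As with Gfra1, every axotomised sample lay above every sham sample. The log2 fold change in SH was 0.37 (SE 0.053, 95% interval 0.25 to 0.48, adjusted P = 0.000830). Bdnf shares 896 of its 6217 exon bases with the antisense gene Gm45346, so a part of its reads could belong to that gene. The gene has 11 coding transcripts in the annotation, several with start sites of their own, and counts per gene do not say which start sites were used.

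Of the 9 members, 5 had start regions in the RefSeq table, 12 windows in all, of which 7 were of Bdnf, and the others were of Gdnf, Ngfr, Ntrk2 and Gfra1. The letters searched for occurred in 1.79% (CRE), 7.81% (AP-1) and 8.3% (STAT) of all 32851 windows of the same length. Among the members they occurred in a pair of Bdnf windows, shown here because they were the only matches, with the matching letters in capitals. The first, chr2:109674450-109674749, plus strand, holds a STAT match that begins 122 bases before the start site. The second, chr2:109676782-109677081, plus strand, holds the letters TGAATCA, a match to the loose AP-1 pattern that begins 152 bases before its start site. A match of letters is a description of the sequence only. Letters close to a pattern were not counted, such as TCACGTCA, near the CRE letters, in the Bdnf window chr2:109692186-109692485.
Bdnf, STAT match: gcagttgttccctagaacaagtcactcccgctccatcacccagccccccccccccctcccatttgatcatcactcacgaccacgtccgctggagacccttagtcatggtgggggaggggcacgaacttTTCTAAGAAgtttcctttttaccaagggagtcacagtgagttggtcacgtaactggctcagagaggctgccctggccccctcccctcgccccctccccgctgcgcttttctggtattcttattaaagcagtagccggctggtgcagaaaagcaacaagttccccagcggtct
Bdnf, AP-1 match: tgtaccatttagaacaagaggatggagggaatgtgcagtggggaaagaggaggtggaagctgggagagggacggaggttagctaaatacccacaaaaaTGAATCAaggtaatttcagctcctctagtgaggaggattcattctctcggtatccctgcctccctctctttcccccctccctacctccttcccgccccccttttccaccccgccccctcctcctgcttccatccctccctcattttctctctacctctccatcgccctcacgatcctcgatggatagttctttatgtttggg

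Gdnf (ENSMUSG00000022144, chr15:7810846-7837575, plus strand), the founding ligand of its family, was close to undetected. SH Sham samples had 0, 3 and 8 reads, SH SNA samples 5, 2 and 0, EE Sham samples 1 each, and EE + SNA samples 0, 3 and 6. Over all 12 samples this made 30 reads, and the 3 samples at 0 allow up to 0.176, 0.239 and 0.267 CPM, with counting error only. Gdnf was below the filter on low counts and was not tested with the other members; without the filter its unadjusted P after SNA in SH was 0.652, and a difference was not detectable at this depth.

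None of the 3 neurotrophin receptors was called after SNA in SH. Ngfr (ENSMUSG00000000120, chr11:95568818-95587735, minus strand), also known from glia and from developing and injured tissue, had 507, 529 and 650 CPM in SH Sham and 459, 510 and 498 CPM in SH SNA. EE Sham had 537, 527 and 501 CPM and EE + SNA had 461, 483 and 442 CPM, and SH Sham replicate 3 was the highest of all 12 samples. In SH Ngfr had a log2 fold change of -0.20 (SE 0.086, unadjusted P = 0.0389, adjusted P = 0.171), with overlapping groups.

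Ntrk2 (ENSMUSG00000055254, chr13:58806569-59133970, plus strand), which encodes TrkB, had 195, 189 and 197 CPM in SH Sham and 192, 181 and 194 CPM in SH SNA. In EE Sham it had 212, 186 and 190 CPM, and in EE + SNA 174, 187 and 162 CPM. In SH the groups overlapped and the log2 fold change was -0.033, with a narrow 95% interval of -0.15 to 0.081 (adjusted P = 0.756).

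Ntrk3 (ENSMUSG00000059146, chr7:78175959-78738012, minus strand), which encodes TrkC, the receptor of NT-3 known from proprioceptive neurons, had 21.6, 22.2 and 27.0 CPM in SH Sham and 20.9, 23.0 and 24.8 CPM in SH SNA. It had 32.5, 25.0 and 20.4 CPM in EE Sham and 21.3, 25.8 and 15.2 CPM in EE + SNA, the widest relative spread of the tested members within these 2 groups. In SH its log2 fold change was -0.042, with a 95% interval of -0.27 to 0.19 (adjusted P = 0.855). FPKM of Ntrk2 per FPKM of Ntrk3 averaged 3.14 ± 0.34 in SH Sham and 3.15 ± 0.29 in SH SNA. The size of this ratio depends on the gene lengths the authors used, which are the same in both groups.

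The effect of SNA within enriched housing was tested as EE + SNA against EE Sham. Gfra1 rose 1.69-fold (log2 fold change 0.76, SE 0.071, adjusted P = 0.000174) and Gfra3 rose 1.35-fold (log2 fold change 0.43, SE 0.069, adjusted P = 0.00401). These 2 of 8 members were called, where 4.77% of all genes were. At the unadjusted threshold 5 of 8 members passed against 20.4% of all genes. Bdnf had a log2 fold change of 0.31 (adjusted P = 0.0572, and 0.0140 with all 12 samples in 1 fit) and Gfra2 one of -0.37 (adjusted P = 0.0758), and the samples of both genes did not overlap between the groups. With Gfra1, Gfra3 and Ngfr this made 5 of 8 members without overlap, against 25.8% of all genes. In Ngfr the 3 EE + SNA samples lay below the 3 EE Sham samples, with a log2 fold change of -0.18 (adjusted P = 0.144). Without EE Sham replicate 3, the library with more sympathetic marker RNA, 2 members were called, and without EE + SNA replicate 3, the library with more neutrophil marker RNA, 2 were called. Of the other cells' markers Glul and Dcn were called higher and of the sensory neuron markers Isl1 lower, and their part in the members' levels was not tested.

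EE + SNA against SH Sham was the study's own comparison for the combined treatment, and it shares the SH Sham samples with the first comparison. Here 4 of 8 members were called, against 12.4% of all genes, 2 of them higher and 2 lower, against 6.91% and 5.53%. At the unadjusted threshold 6 of 8 passed, against 27.1%, and 6 of 8 had groups that did not overlap, against 31.8%. Gfra1 rose by 0.83 on the log2 scale (SE 0.068, adjusted P = 1.40e-05) and Bdnf by 0.42 (SE 0.070, adjusted P = 0.00209). Gfra2 fell by 0.41 (SE 0.10, adjusted P = 0.0191) and Ngfr fell by 0.28 (SE 0.085, adjusted P = 0.0464). The call of Ngfr leaned on SH Sham replicate 3: without it the log2 fold change was -0.16 (adjusted P = 0.165). It was also lost without SH Sham replicate 2 (adjusted P = 0.0599) and without EE + SNA replicate 1 (0.114) or replicate 3 (0.0994). That of Gfra2 was lost without SH Sham replicate 1 (0.0527) or replicate 3 (0.0756). Without EE + SNA replicate 3 the count of called members was 3. Gfra3 had a log2 fold change of 0.25 (adjusted P = 0.0548, and 0.0335 with the likelihood ratio test) with all EE + SNA samples above all SH Sham samples. Ntrk2 had one of -0.15 (unadjusted P = 0.0379, adjusted P = 0.155, edgeR) with all EE + SNA samples below all SH Sham samples. Schwann cell markers moved in the same comparison: 3 of 6 were called, all higher, with a summed level of 8740 to 11500 CPM in EE + SNA. Of the other lists 3 of 3 red blood cell markers, 2 of 4 fibroblast, 2 of 7 macrophage, 1 of 4 endothelial and 1 of 6 satellite glia markers were called higher, and 2 of 8 sensory neuron markers lower. The part of these markers in the members' levels was not tested.

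Housing by itself gave no called member. In EE Sham against SH Sham edgeR called 0 of 8 members after adjustment, as did DESeq2 and limma, where 0.00616% of all genes were called in edgeR, with 1 of 8 at the unadjusted threshold against 2.96% of all genes. That member was Gfra3, with a log2 fold change of -0.18 (SE 0.083, 95% interval -0.36 to -0.0039, unadjusted P = 0.0458, adjusted P = 0.99991). Each of the 8 members had overlapping samples, where 7.61% of all genes did not overlap. It was not below the unadjusted threshold in DESeq2 or without SH Sham replicate 2, SH Sham replicate 3 or EE Sham replicate 3. The 95% intervals of the other 7 members lay within -0.29 and 0.43, the upper bound being that of Ntrk3.

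Among axotomised mice, EE + SNA against SH SNA called 0 of 8 members after adjustment in edgeR, DESeq2 and limma and, in edgeR, 0 of 8 at the unadjusted threshold, where 0% and 4.1% of all genes were called. Of the 8 log2 fold changes 7 were below 0, with a median of -0.11 beside 0.0024 over all genes. The members were measured in the same libraries and some were correlated, so their signs are not independent. All 8 members had overlapping groups, where 10.4% of all genes did not overlap. The nearest to the threshold was Gfra3 with -0.16 (95% interval -0.33 to 0.010, unadjusted P = 0.0630), followed by Ntrk2 with -0.12 (-0.25 to 0.022), Ret with -0.12 (-0.26 to 0.024) and Gfra1 with -0.097 (-0.23 to 0.040). Bdnf was the member above 0, with 0.054 (-0.097 to 0.20). The interval of Gfra2, -0.31 to 0.27, was the widest among the GDNF family receptors. Without EE + SNA replicate 3, 0 members were called after adjustment, here and in the interaction.

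Whether SNA acted differently in the housings was tested with the interaction of housing and surgery over all 12 samples. It called 0 of 8 members after adjustment in edgeR, DESeq2 and limma and, in edgeR, 0 of 8 at the unadjusted threshold, where 0% and 2.61% of all genes passed. The estimate for Gfra1 was -0.17 on the log2 scale (95% interval -0.36 to 0.023, unadjusted P = 0.0808, adjusted P = 0.99995), that is, a smaller rise in EE than in SH by an amount that did not pass the test. Estimates for Bdnf, Gfra2, Gfra3 and Ngfr were -0.062, 0.025, 0.020 and 0.024. The interval for Gfra2 was -0.35 to 0.40.

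**Figure D3:**
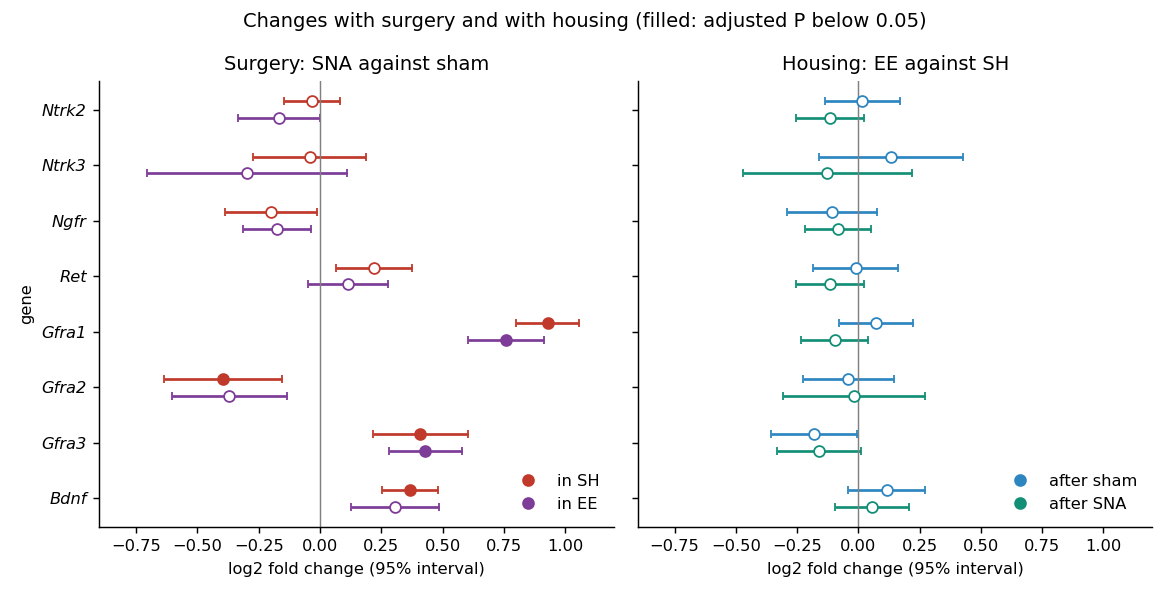
Log2 fold change (x axes, with 95% intervals) of the 8 tested members (y axis) with surgery (left) and with housing (right), filled where the adjusted P was below 0.05. Gfra1 is farthest from 0 after SNA in both housings, at 0.93 and 0.76, and no point for housing is filled.

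Other genes of the same pathways were taken from a list of 61 by role, of which 57 were tested. After SNA in SH 15 of 57 were called, 10 higher and 5 lower, where 11.2% of all genes were, and the median log2 fold change of the list was 2.61e-05 beside 0.0023 over all genes. The ligands other than Bdnf were low. Ntf5, Artn, Pspn and Nrtn had at most 13 reads in any sample and were not tested. Ntf3, the ligand of TrkC, averaged 0.629 CPM in SH Sham and 0.268 CPM in SH SNA, with a log2 fold change of -1.21 (adjusted P = 0.209) and one of -1.50 in EE (adjusted P = 0.0556).

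Of 8 further receptors and co-receptors 1 was called after SNA in SH, close to the share of 11.2% over all genes. Sdc3, a syndecan known to bind GDNF family ligands, rose by 0.24 on the log2 scale (adjusted P = 0.0220). Gfra4, the co-receptor for persephin, had a log2 fold change of -0.27 (adjusted P = 0.0929), and Sort1, a sortilin that pairs with p75NTR, one of 0.094 (adjusted P = 0.397). Among 7 partners of p75NTR, Lingo1, which forms a receptor complex with p75NTR and the Nogo receptor, fell by 0.53 (adjusted P = 0.000565) and the others were not called.

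Of 22 adaptors and effectors 5 rose and 3 fell after SNA in SH, where 5.97% of all genes were called higher and 5.22% lower. Those that rose were Dok5, a docking protein for RET, by 0.53 (adjusted P = 0.00519), Rapgef1 by 0.27, Gab2 by 0.25, Shc2 by 0.23 and Grb2 by 0.21. Frs3, a docking protein for Trk receptors, fell by 0.50 (adjusted P = 0.0103), Dok4 by 0.35 and Sos1 by 0.23. Among 10 inhibitors Lrig1, which is known to restrain RET and Trk signalling, rose by 0.60 (adjusted P = 0.00127) from 23.5 to 35.7 CPM. Spry4, a Sprouty inhibitor of receptor tyrosine kinase signalling, had a log2 fold change of -0.41 (adjusted P = 0.0709) in SH and fell by 0.67 in EE (adjusted P = 0.00786).

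Of 5 genes for processing of neurotrophic factor precursors, Pcsk1, a prohormone convertase, rose by 0.48 (adjusted P = 0.000183) and Plat, the tissue plasminogen activator, by 0.46 (adjusted P = 0.00914). Among 4 target genes Vgf, a neuropeptide precursor known to be induced by neurotrophins, rose by 0.51 (adjusted P = 0.00607) from 150 to 214 CPM. Etv1, an ETS transcription factor of proprioceptive neurons, fell by 0.48 (adjusted P = 0.00252) from 108 to 77.4 CPM. Over all genes 5.97% were called higher and 5.22% lower in the same comparison.

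In EE + SNA against EE Sham 7 of 57 pathway genes were called, where 4.77% of all genes were: Lrig1, Pcsk1, Plat and Vgf rose, and Lingo1, Spry4 and Etv1 fell. In EE + SNA against SH Sham 15 of 57 were called, against 12.4% of all genes, 9 higher and 6 lower, of which Spry4 fell by 0.62. EE Sham against SH Sham, EE + SNA against SH SNA and the interaction called 0 of 57 each, with 2, 0 and 3 at the unadjusted threshold, which 2.96%, 4.1% and 2.61% of all genes passed. Those were Lingo1 and Frs3, both with a log2 fold change below 0, in EE Sham, and Frs3, Furin and Etv4, each above 0, in the interaction.

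**Figure D4:**
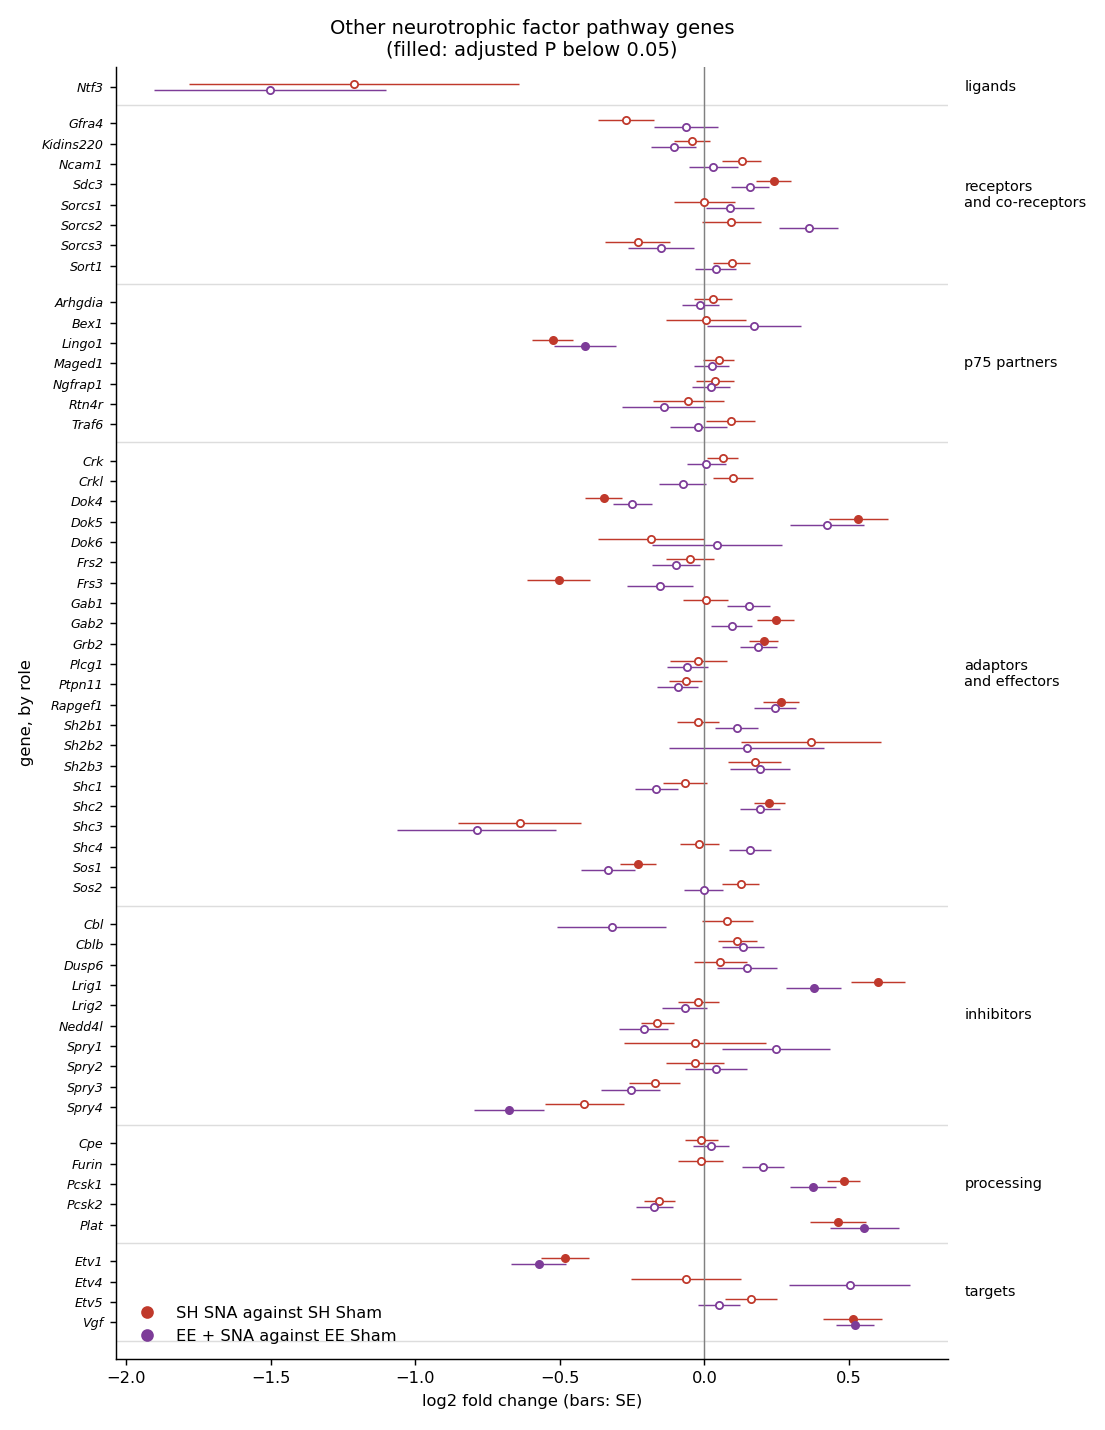
Log2 fold change with its SE (x axis) of the 57 tested pathway genes, grouped by role (y axis), after SNA in SH (red) and in EE (purple), filled where the adjusted P was below 0.05. Lrig1, Pcsk1, Plat and Vgf are filled to the right of 0 and Lingo1 and Etv1 to the left of 0 in both housings.

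The genes most like each called member were found by Pearson's r of log2 CPM over the 12 samples, among 16237 other genes, as a description; the 12 points share libraries and the 2 surgeries. For Gfra1 they were Csf1, a macrophage growth factor (r = 0.991), Ubn1 (r = 0.989) and Rnf122 (r = 0.989). For Gfra2 they were N28178, Rasgrp1 and Paqr5, each with r = 0.974. Gfra3 was closest to Wfdc3 (r = 0.966), to Gap43, a growth cone protein (r = 0.962), and to Micall1 (r = 0.943). Of these Wfdc3 was low, with a mean of 1.23 CPM. Bdnf was closest to Csnk1g3 (r = 0.987), Cd44, a hyaluronan receptor, and Rasef (both r = 0.976). Among the members, Gfra1 and Bdnf had r = 0.914, Gfra1 and Gfra3 r = 0.841, and Ntrk2 and Ntrk3 r = 0.819, while Gfra1 and Gfra2 had r = -0.734.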

How the data were processed

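RNA of pooled sciatic DRG was sequenced with the TruSeq mRNA kit on an Illumina HiSeq as paired ends, 12 samples in 4 groups. The authors mapped reads to mm10 with TopHat2 2.0.12 and Bowtie2 2.2.3, used SAMtools 0.1.19, and counted them per Ensembl gene with HTSeq 0.6.0 (versions from the submitters' processing notes). They deposited raw read counts per gene and FPKM values, which scale fragments by gene length and by library. The authors tested with edgeR 3.8.6 at an unadjusted P of 0.05. Rows of the count table that name no gene were left out, and 46.7% to 47.6% of reads had no feature.

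Here edgeR 4.0.16 (R 4.3.3) fitted the deposited counts with TMM scaling (factors 0.978 to 1.02), filterByExpr (minimum count 10 and total 15) and its quasi-likelihood test. Each comparison used its 6 samples and the interaction all 12. P-values were adjusted by Benjamini-Hochberg over 16238 genes. Each SE was worked back from the log2 fold change and the statistic of the quasi-likelihood test, and the 95% intervals use this SE. Samples were taken as replicates from their labels, and replicates differed beyond sampling noise, by a chi-square test of their counts (3.87 to 8.53 per degree of freedom). Nothing says that they came from separate cohorts, so P-values measure the spread between these samples. Scripts were tested on simulated counts. Alternatives were the likelihood ratio test, DESeq2 1.42.0, library size scaling, no filter, all 12 samples in 1 fit, a replicate block, limma 3.58.1 on log2(FPKM + 1) and log2(FPKM + 0.1), and each sample left out. The main tests did not pair samples, and the replicate block paired them by number as an alternative. Every same-numbered pair of deviations from the group means had a correlation over 0.1 in EE Sham against SH Sham alone (0.125 to 0.333). Pairs with other numbers reached 0.197 there, and the labels give no shared cohort, so whether the numbers pair samples is not known. With the block, 0 members were called in that comparison. Positions are from GENCODE M21 (GRCm38) and windows from RefSeq.

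The members and the gene lists were chosen with earlier results of these data known. All members are named, as are the listed pathway genes that were called in any comparison, a fixed set of ligands and receptors, and the 3 genes most like each member called after SNA in SH. A pair of genes of the pathway list is not reported here.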

Additional observations from a re-analysis of the deposited data

How the results depend on the processing

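Gfra1 was called in every alternative of the 3 comparisons of SNA with sham, with log2 fold changes in EE of 0.71 to 0.81 when 1 sample was left out, and Gfra3 and Bdnf in SH SNA against SH Sham were also called in all alternatives. The count of members called in EE + SNA against SH Sham was 4 and became 2 with the replicate block (adjusted P = 0.0893 for Ngfr and 0.0644 for Gfra2), 2 on log2(FPKM + 1) and 2 on log2(FPKM + 0.1), and 5 with the likelihood ratio test and with no filter, which added Gfra3 (adjusted P = 0.0335 and 0.0188). Gfra3 was also called there without SH Sham replicate 3 (0.0449). In EE + SNA against EE Sham it was 2 and became 4 with the likelihood ratio test, 4 with DESeq2 and 4 with no filter on low counts, which added Bdnf and Gfra2. With 1 sample left out the count was 3 to 4 in SH SNA against SH Sham, 3 to 4 in EE + SNA against SH Sham, 2 to 3 in EE + SNA against EE Sham and 0 in EE Sham against SH Sham, EE + SNA against SH SNA and the interaction, which stayed at 0 in all other alternatives too. In SH SNA against SH Sham, Gfra2 had an adjusted P of 0.0533 with all 12 samples in 1 fit and of 0.0845 on log2(FPKM + 1). Ret was called there with the likelihood ratio test (adjusted P = 0.0393), DESeq2 (0.0201), no filter (0.0276) and the replicate block (0.0291), and Ngfr with no filter (0.0298). Bdnf in EE + SNA against EE Sham was also called with library size only (adjusted P = 0.0495), all 12 samples in 1 fit (0.0140) and the replicate block (0.0252); the block changed no other member's call. The labels link samples of different groups only by a number. It was in EE + SNA against SH SNA alone that every sample correlated best with its own number (0.0529 to 0.123, against at most 0.0396 with other numbers). Counts of pathway genes called ranged from 11 to 16 in SH SNA against SH Sham, 9 to 17 in EE + SNA against SH Sham and 3 to 15 in EE + SNA against EE Sham. How many of all genes each alternative called was not recorded. Shifts in these counts of members and pathway genes therefore cannot be told apart from a general shift in calls.

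Signs turned only when 1 sample was left out, and only for values that were not called. The log2 fold change of Ntrk3 ranged from -0.10 to 0.065 in SH SNA against SH Sham, from -0.38 to 0.012 in EE + SNA against SH Sham and from -0.33 to 0.045 in EE + SNA against SH SNA. In the latter Gfra2 ranged from -0.16 to 0.097 and Bdnf from -0.028 to 0.11. In EE Sham against SH Sham the ranges were -0.039 to 0.054 for Ntrk2, -0.049 to 0.28 for Ntrk3, -0.18 to 0.010 for Ngfr, -0.072 to 0.062 for Ret and -0.10 to 0.033 for Gfra2. For the interaction they were -0.12 to 0.14 for Gfra2, -0.055 to 0.094 for Gfra3 and -0.093 to 0.088 for Ngfr. The cause of these shifts was not tested. Gdnf had 0 to 8 reads a sample and was below the filter.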
